A study of Mus musculus with 6 samples.

Results

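The RNAs described here are those encoded by the mouse mitochondrial genome, the small circular chromosome inside mitochondria. They were taken as every row of the 6 deposited libraries whose gene symbol starts with mt-. This gave 37 of 55802 symbols, made up of 13 protein genes, 2 ribosomal RNA (rRNA) genes and 22 transfer RNA (tRNA) genes. The tissue was liver of male C57BL/6 mice kept for 71 weeks, profiled by RNA sequencing. Control mice (3 libraries) received normal chow, and the PS-MP group (3 libraries) received chow with PS-MP, polystyrene microplastic. No genetic change is named for either group, and the series asks what prolonged exposure does to liver expression. The sources used here give neither particle size nor dose, and the labels do not say whether the 3 libraries of a diet come from separate animals, so p-values measure the spread between libraries, which may be partly technical.

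Mitochondrial DNA is copied into long RNAs from both of its strands, and the RNAs are then cut apart, mostly at the tRNAs that lie between the other genes. The protein genes all encode core subunits of the oxidative phosphorylation system: complex I (NADH dehydrogenase), complex III (cytochrome bc1), complex IV (cytochrome c oxidase) and complex V (ATP synthase). The rRNAs and tRNAs serve the mitochondrion's own ribosomes, and every other protein of the system, including all of complex II, is made from nuclear genes. Liver cells are rich in mitochondria, so these RNAs are abundant in liver. The libraries were made from RNA selected for poly(A) tails, per the labels, so a level here is that of the RNA kept by that selection.

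Libraries held 68357478 to 112566641 counts. Albumin RNA (Alb), the defining hepatocyte product, took 4.18% to 6.72% of counts. Levels are given as CPM, that is counts brought to the same library size by the TMM method (trimmed mean of M values). The TMM factors were 0.891 to 0.957 in the control libraries and 1.04 to 1.11 in the PS-MP libraries. The cytosolic rRNA gene Rn18s-rs5 took 2.92%, 11.2% and 1.15% of counts in the control libraries and 1.14%, 0.599% and 0.388% in the PS-MP libraries. Control library 2 stood apart from the rest. All PS-MP libraries lay below all control libraries, by a narrow gap between control library 3 and PS-MP library 1. Summed red-cell markers (6 of 6 detected) were at 263 to 504 CPM in controls and 571 to 848 CPM with PS-MP, and summed Kupffer cell markers (6 of 6) at 79.9 to 102 and 116 to 140 CPM. Neither pair of ranges overlapped. Taken singly, 2 of 6 red-cell and 4 of 6 Kupffer cell genes were higher with PS-MP without overlap, against 6.24% of all genes tested. Summed hepatocyte, endothelial, stellate, cholangiocyte and lymphocyte markers overlapped between diets. Adipocyte markers summed to 20.4 to 70.8 and 13.2 to 39.2 CPM, with Ucp1 at 0 in every library and Lep and Plin1 at 0 in 5 of 6, and 4 of 6 skeletal muscle markers were at 0 in every library. The part of these differences in the results below was not tested. In bulk tissue, fewer cells of a type and less RNA per cell cannot be told apart.

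Mitochondrial rows were among those with the most counts in the table. Of the 20 rows of highest mean CPM, 9 were mitochondrial genes and 5 were nuclear copies of them, described below, and mt-Co1, the catalytic core subunit of complex IV, ranked 2. The 37 rows together took 14.9%, 16.4% and 16.0% of all counts in the control libraries and 15.8%, 14.7% and 12.8% in the PS-MP libraries. These ranges overlapped, and PS-MP library 3 was lowest. Nearly all of it came from the protein genes, which made up 88.4% to 95.7% of the mitochondrial counts, while the rRNAs made up 3.33% to 10.3% and the tRNAs 0.980% to 1.71%.

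**Figure D1:**
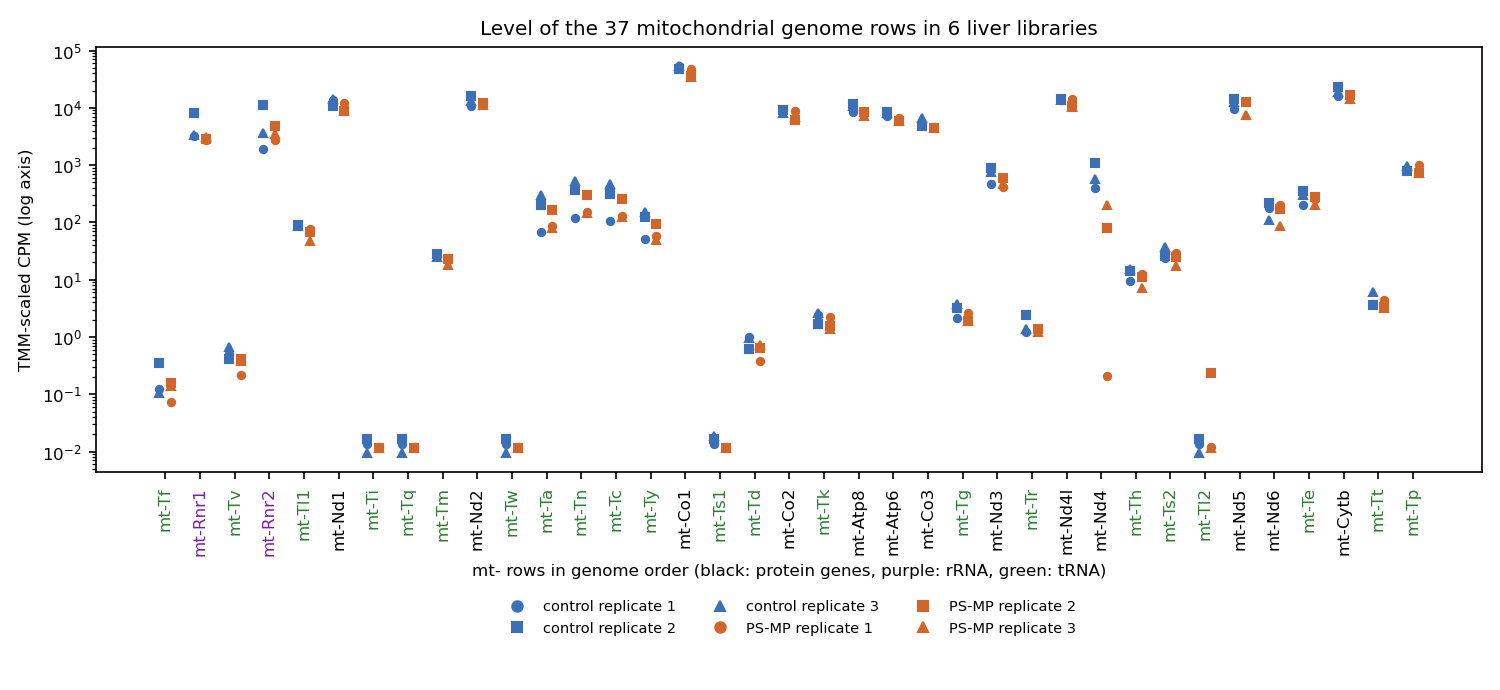
TMM-scaled CPM (log axis) of the 37 mitochondrial rows in genome order, with 1 point per library (blue control, orange PS-MP, marker shape by replicate). Most protein genes lie near the top, with mt-Nd3, mt-Nd4 and mt-Nd6 lower, tRNA rows span from about the level of 1 count per library to that of mt-Tp, and mt-Nd4 in PS-MP library 1 sits far below the other libraries.

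Between the diets, no mitochondrial row passed the test. Of the 37 rows, 32 had enough counts to be tested and 5 tRNA rows did not. With edgeR's quasi-likelihood test and Benjamini-Hochberg adjustment over 17662 genes, 0 of 32 rows had an adjusted p under 0.05, beside 0.0113% of all genes tested. DESeq2 and limma-voom also called 0 of the 32, where they called 1.06% and 0.00566% of all genes. At an unadjusted p under 0.05, 1 row (mt-Tl1) passed, against 5.38% of all genes tested (2.8% higher and 2.58% lower with PS-MP). All 32 log2 fold changes (PS-MP minus control) were nevertheless below zero, against 47.2% of all genes, whose median was 0.02, but with library size only in place of TMM 4 of them (mt-Nd2, mt-Nd5, mt-Nd6 and mt-Tp) were above zero. The mitochondrial rows share their source and their scaling, so they are not 32 separate observations.

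The size of the shared difference depended on the scaling. The median log2 fold change was -0.32 over the 13 protein genes and -0.30 over the 12 without mt-Nd4. With library size in place of TMM the median of all genes moved by 0.21, from 0.02 to 0.23, and the median of the 13 protein genes was -0.11. The median of the protein genes lay below that of all genes under both scalings. A change of scaling moves all genes by nearly the same amount, so the like distance is no added support for a difference. CPM of the diets did not overlap, with PS-MP lower, for 8 of the 32 rows (25%), against 4.99% of all genes tested. Those rows were mt-Co1, mt-Co3, mt-Atp6, mt-Nd4, mt-Rnr1, mt-Tl1, mt-Tm and mt-Tv. In the opposite direction there were 0 of 32, against 6.24% of all genes. In percent of all counts, with no TMM factor, only mt-Nd4 and mt-Tl1 stayed lower without overlap, and the diets of the other 6 overlapped. Rows lower with PS-MP on this scale were thus 2 of 32, against 1.53% of all genes tested. Rows higher with PS-MP without overlap were 0 of 32, against 17.5% of all genes tested. For 16 of the 32 rows the 95% interval lay inside 2-fold either way, against 53.6% of all genes tested.

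**Figure D2:**
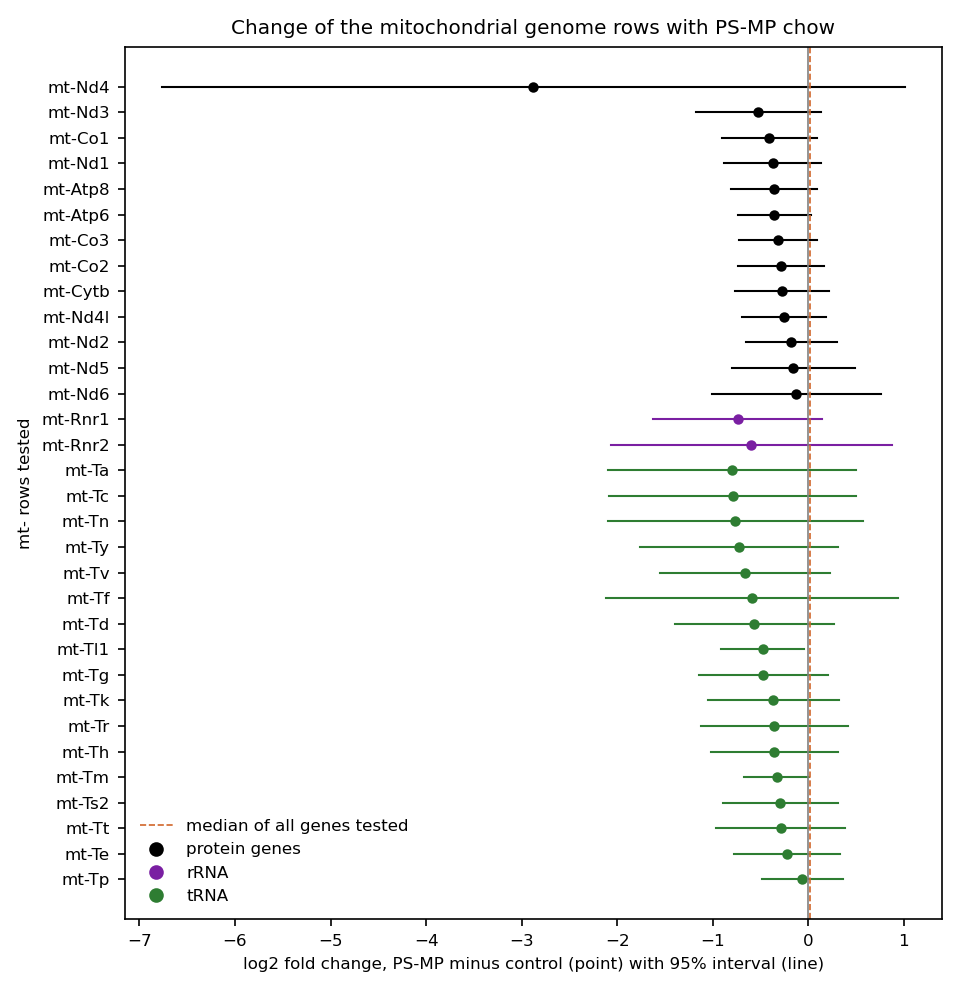
Log2 fold change, PS-MP minus control (points), with its 95% interval (lines) for the 32 mitochondrial rows tested, coloured by class, and the median of all genes tested (dashed line, 0.02). All 32 points lie left of 0 (4 move above 0 with library size only), mt-Tl1 is the only row whose interval does not reach 0, and mt-Nd4 has the widest interval.

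The protein genes as a class took 14.2%, 14.5% and 15.1% of counts in the control libraries and 15.04%, 13.7% and 11.9% in the PS-MP libraries, or 14.6% ± 0.446 against 13.5% ± 1.56 (SD, n = 3 each). Here the diets overlapped, with PS-MP library 1 inside the control range. In TMM-scaled CPM the same class stood at 148529, 163105 and 160563 in controls and 144387, 122646 and 110944 with PS-MP, which did not overlap. Whether the class separated the diets therefore rested on the scaling. Leaving all 59 cytosolic rRNA rows out of the total gave 14.6% to 16.4% in controls and 11.97% to 15.2% with PS-MP, which still overlapped.

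**Figure D3:**
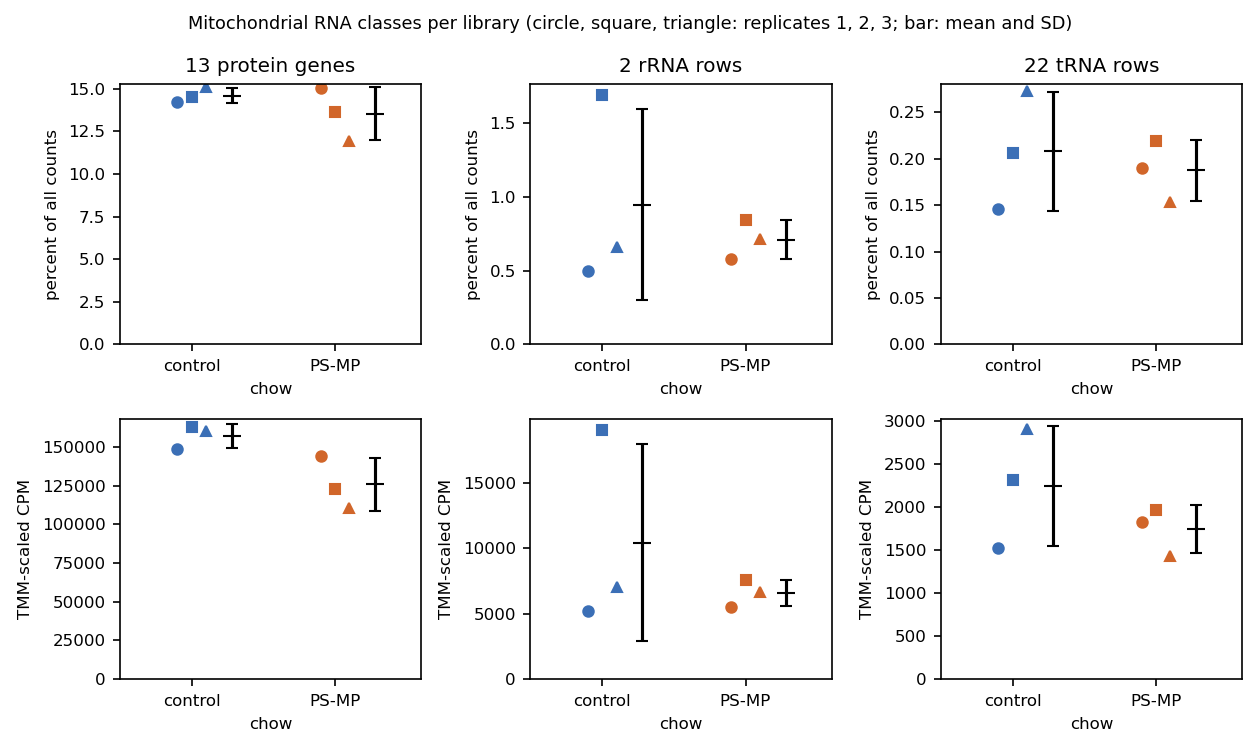
Summed level of the 13 protein, 2 rRNA and 22 tRNA rows per library, as percent of all counts (top) and as TMM-scaled CPM (bottom), with the mean and SD of 3 libraries beside the points. The diets separate in the protein panel on the CPM scale, from 110944 to 144387 in PS-MP and from 148529 to 163105 in control libraries, and overlap in the other panels.

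Complex IV has 3 mitochondrial genes. mt-Co1 stood at 52833, 48275 and 53023 CPM in control libraries and at 46905, 35496 and 33860 CPM in PS-MP libraries. On this scale all 3 PS-MP libraries lay below all 3 controls, with PS-MP library 1 close to control library 2, whereas in percent of all counts mt-Co1 took 4.30% to 5.05% in controls and 3.64% to 4.89% with PS-MP, which overlapped. Its log2 fold change was -0.41 (SE 0.21, 95% interval -0.90 to 0.09, adjusted p = 0.931) and -0.20 with library size only. mt-Co3, another core subunit, had 5458, 4754 and 6562 CPM in controls and 4621, 4427 and 4421 CPM with PS-MP. The PS-MP libraries were tightly grouped and just under control library 2, with a log2 fold change of -0.32 (SE 0.17). mt-Co2, which carries the site that receives electrons from cytochrome c, had 9221, 9039 and 8248 CPM against 8788, 6170 and 6856 CPM. For mt-Co2 the diets overlapped through PS-MP library 1, and the log2 fold change was -0.28 (SE 0.19).

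The complex V subunits lie on a shared mRNA. mt-Atp8, a small membrane subunit, had 8393, 11571 and 10753 CPM in controls and 8371, 8474 and 7167 CPM with PS-MP. Control library 1 fell between PS-MP libraries 1 and 2, so the diets overlapped, and the log2 fold change was -0.36 (SE 0.19). mt-Atp6, the subunit that forms the proton channel with the rotor ring, had 7093, 8409 and 8168 CPM against 6766, 5939 and 5818 CPM. Its diets did not overlap, and the log2 fold change was -0.35 (SE 0.16, adjusted p = 0.923). The reading frames of these genes share 43 bases, shown in capitals at the end of mt-Atp8, so a read from that stretch belongs to both rows. Sequences here and below are from the GENCODE release M21 transcripts (build GRCm38, an earlier build than the GRCm39 of the files), written 5′ to 3′.
mt-Atp8, end: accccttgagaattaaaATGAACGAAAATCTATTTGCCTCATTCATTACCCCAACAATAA

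mt-Cytb, the cytochrome b of complex III and that complex's sole mitochondrially encoded subunit, had 16356, 23246 and 18524 CPM in controls and 17141, 16903 and 14017 CPM with PS-MP. Control library 2 was highest and PS-MP library 3 lowest, with the others mixed. The log2 fold change was -0.27 (SE 0.21).

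Complex I has 7 mitochondrial genes, which encode the membrane arm that pumps protons. mt-Nd1, the subunit next to the ubiquinone site, had 13550, 10629 and 14428 CPM in controls and 12013, 8860 and 8962 CPM with PS-MP. The ranges overlapped through control library 2, and the log2 fold change was -0.37 (SE 0.21). mt-Nd2, an antiporter-like subunit, had 10979, 16315 and 12998 CPM against 12232, 12319 and 11090 CPM. Only control libraries 2 and 3 stood above the PS-MP range. Its log2 fold change was -0.18 (SE 0.20) with TMM and 0.04 with library size only, so its direction depended on the scaling. mt-Nd4l, a small membrane subunit, had 13943, 14368 and 13753 CPM in controls and 14077, 10794 and 10387 CPM with PS-MP. Control libraries lay close together, and PS-MP library 1 was among them while PS-MP libraries 2 and 3 were lower, with a log2 fold change of -0.25 (SE 0.18).

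mt-Nd5, the antiporter-like subunit at the far end of the arm, had 9664, 14272 and 12658 CPM in controls and 12855, 12412 and 7609 CPM with PS-MP. Its direction rested on PS-MP library 3: the log2 fold change was -0.15 (SE 0.27), 0.04 without that library and 0.06 with library size only. mt-Nd3, which carries a loop that moves between the active and resting forms of the enzyme, had 464, 903 and 767 CPM in controls and 418, 598 and 469 CPM with PS-MP. Control library 1 lay inside the PS-MP range, and the log2 fold change was -0.52 (SE 0.27).

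mt-Nd6 is the sole protein gene read from the strand opposite to the other 12. It had 181, 215 and 108 CPM in controls and 202, 173 and 87.2 CPM with PS-MP. Replicate 3 of each diet was lowest and the diets overlapped. Its log2 fold change of -0.13 (SE 0.37) became 0.09 without control library 2, 0.15 without PS-MP library 3 and 0.09 with library size only. As a share of the counts of the other 12 protein genes, mt-Nd6 made up 0.122%, 0.132% and 0.0676% in controls and 0.140%, 0.141% and 0.0787% with PS-MP, so library 3 of each diet was low within its own mitochondrial counts too. mt-Nd5 and mt-Nd6 overlap by 14 bases on opposite strands, and the sources used here do not state the strand setting of the counting.

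The mt-Nd4 row, for another antiporter-like subunit of complex I, stood apart from all of these. Its raw counts were 28480, 67595 and 60698 in controls and 17, 7164 and 17217 with PS-MP, or 392, 1110 and 574 CPM against 0.206, 81.1 and 201 CPM. Highest and lowest libraries differed 5379-fold, whereas the other 12 protein genes spanned from 1.38-fold (mt-Nd4l) to 2.46-fold (mt-Nd6). The diets did not overlap, yet the log2 fold change was -2.88 with an SE of 1.63, a 95% interval from -6.77 to 1.01 and an adjusted p of 0.955. It ranged from -4.11 to -2.29 on leaving out single libraries (PS-MP library 3 and PS-MP library 1, respectively).

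Most counts over the mt-Nd4 sequence stood in the row of a nuclear copy. Copies were looked for by matching the mitochondrial transcripts to all others of the same release, a step added after the values were seen. The pseudogene Gm28439, on chromosome 1, matches bases 1 to 876 of the 1378 bases of mt-Nd4 at 100% identity and ends there, which leaves 502 bases of mt-Nd4 without a match. The lines below show mt-Nd4 around the end of the match, with the bases that Gm28439 also holds in capitals, then the last matched bases of Gm28439. They are shown because a read from the capitals fits both rows equally, and of the reads within this transcript only one that reaches the lower-case bases can be told to be mt-Nd4.
mt-Nd4, end of the match: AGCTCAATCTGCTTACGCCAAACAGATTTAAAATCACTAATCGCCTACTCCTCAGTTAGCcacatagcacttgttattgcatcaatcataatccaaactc
Gm28439, end of the match: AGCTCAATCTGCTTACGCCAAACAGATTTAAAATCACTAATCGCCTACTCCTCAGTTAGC

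The row of Gm28439 held 493083, 419348 and 644828 counts in controls and 534689, 449486 and 379672 with PS-MP, far above the mt-Nd4 row in each. Of the counts of both rows together, mt-Nd4 received 5.46%, 13.9% and 8.60% in controls and 0.00318%, 1.57% and 4.34% with PS-MP. The share in PS-MP library 1 has an exact 95% binomial interval of 0.00185% to 0.00509%, which covers counting error only. The sum of both rows was 7183, 7998 and 6669 CPM in controls and 6492, 5172 and 4635 CPM with PS-MP. Added up, the libraries differed 1.73-fold at most, within the 1.38-fold to 2.46-fold span of the other protein genes. In CPM the diets did not overlap, by a narrow gap between control library 3 and PS-MP library 1. In percent of all counts the diets overlapped, with PS-MP library 1 inside the control range. The log2 fold change was -0.42 for the sum (SE 0.19, 95% interval from -0.87 to 0.03, adjusted p = 0.923) and -0.30 for Gm28439 alone (SE 0.19). Why mt-Nd4 received so few of these reads, and why its share varied, was not tested.

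**Figure D4:**
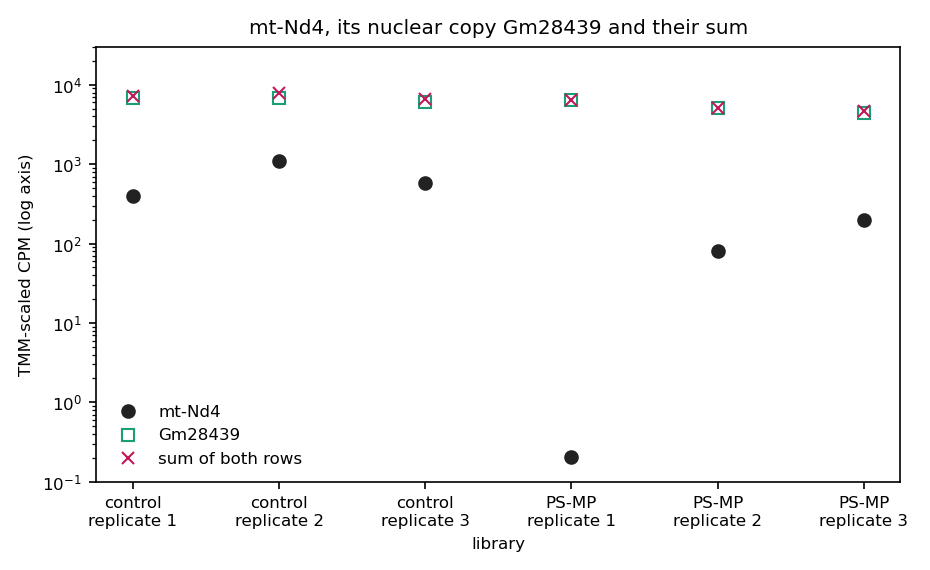
TMM-scaled CPM (log axis) of the mt-Nd4 row (black), its nuclear copy Gm28439 (squares) and their sum (crosses) in each of the 6 libraries. The mt-Nd4 row runs from 0.206 to 1110 CPM, while the sum stays between 4635 and 7998 CPM.

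The mt-Nd4l and mt-Nd4 reading frames overlap by 7 bases on a shared mRNA. The end of the first and the start of the second are shown with the shared bases in capitals, which hold the start codon of mt-Nd4. Although they lie side by side, mt-Nd4l had 1.38-fold differences between libraries and mt-Nd4 5379-fold.
mt-Nd4l, end: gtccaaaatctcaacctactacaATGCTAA
mt-Nd4, start: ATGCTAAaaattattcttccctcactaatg

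Gm28439 is part of a block of 7 copies of at least 99% identity, which are consecutive genes on chromosome 1 in the same order as their mitochondrial sources. Their counts together took 4.30%, 4.14% and 4.50% of all counts in controls and 4.405%, 3.86% and 3.67% with PS-MP. How reads were divided between source and copy differed from pair to pair but varied little between libraries, apart from mt-Nd4 and mt-Nd4l. mt-Co2 had 0.997 to 1.01 times the counts of Gm28661, which matches 681 of its 684 bases without a mismatch. mt-Atp6 had 0.614 to 0.695 times the counts of Gm10925, and mt-Co3 0.527 to 0.599 times those of Gm28437. Both of these copies are identical to their source over the matched bases too. mt-Co1 had 5.41 to 6.46 times the counts of Gm29216, which matches 483 of its 1545 bases.

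For mt-Nd3 the ratio to its copy Gm28438 was 0.935 to 0.967, although the pair can be told apart at a single base. Gm28438 differs from mt-Nd3 by T3C, counted from the first base of mt-Nd3, and the base concerned is in capitals in the starts of both transcripts below.
mt-Nd3: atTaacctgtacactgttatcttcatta
Gm28438: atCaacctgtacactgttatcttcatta
mt-Nd4l was the opposite case. Its copy Gm10222, identical over 294 bases, was listed at 1 count in 5 libraries and at 112 in PS-MP library 1, the library with 17 counts of mt-Nd4. Levels of single rows with such copies are uncertain. Adding each of the 7 copies to its source before the fit left the median log2 fold change of the 13 protein genes at -0.33 and of the 12 without mt-Nd4 at -0.30, with 0 rows past the threshold. A further 4 copies match at 95% to 99% identity, and their counts were small beside those of their sources: mt-Co2 had 31.0 to 37.2 times the counts of Gm13341, and mt-Co1 64.9 to 125 times those of Gm13340.

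Within the counts of the mitochondrial rows alone, the shares of the complexes overlapped between diets except for complex I. The copies were not added here, so these shares depend on how reads were divided between source and copy. Complex I includes mt-Nd4. Complex I genes made up 31.7%, 31.3% and 32.4% in controls and 34.1%, 34.2% and 32.6% with PS-MP. The PS-MP libraries lay above the controls, by a gap of under a percentage point between control library 3 and PS-MP library 3, and the sum was not tested. Complex IV took 43.5%, 33.7% and 39.8% against 39.7%, 34.9% and 37.9%, where library 2 of each diet was lowest and the diets overlapped. Complex III (10.5% to 12.8%) and complex V (9.97% to 11.1%) also overlapped between diets. The ratio of mt-Co1 to mt-Cytb counts was 3.23, 2.08 and 2.86 in controls and 2.74, 2.10 and 2.42 with PS-MP, again lowest in library 2 of each.

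Per kilobase of length, which allows levels of different genes to be compared, mt-Co1 and the mt-Atp8 and mt-Atp6 mRNA were highest. With the copies added, mt-Co1 had 38765 ± 2326 CPM per kilobase in controls and 29473 ± 5495 with PS-MP (mean ± SD, n = 3), and the mt-Atp8 and mt-Atp6 mRNA had 35777 ± 4650 and 27976 ± 2174. Their order was not the same throughout, mt-Co1 being above in 4 of 6 libraries. The parts of the mt-Atp8 and mt-Atp6 mRNA differed. In controls mt-Atp8 had a mean of 10239 CPM over 204 bases, and mt-Atp6 with Gm10925 added had 19886 CPM over 681 bases. mt-Co2 came next, below the ATP synthase mRNA and above mt-Co3 in 6 of 6 libraries, and mt-Cytb followed, below mt-Co3 in 5 of 6. This order rested on the copies: without them the means over the 6 libraries were 15470 CPM per kilobase for mt-Cytb, which has no such copy, 11774 for mt-Co2 and 6429 for mt-Co3, in place of 23511 and 17613 for the last 2 with copies added. mt-Nd2, mt-Nd1 and the mt-Nd4l and mt-Nd4 mRNA had like means over the 6 libraries, of 12192, 11920 and 11538 CPM per kilobase. Their order changed between libraries. The parts of the last mRNA differed widely, however. In controls mt-Nd4l had a mean of 14021 CPM over 297 bases, and mt-Nd4 with Gm28439 added had 7283 CPM over 1378 bases. As single rows without copies, mt-Atp8 and mt-Nd4l had 50190 and 47210 CPM per kilobase in controls, above the 33254 of mt-Co1. Comparisons of either shared mRNA with other genes, here and below, are therefore uncertain.

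Lower levels per kilobase were found for the remaining complex I genes and the rRNAs. mt-Nd5 was below the mt-Nd4l and mt-Nd4 mRNA in 6 of 6 libraries, with 6687 ± 1282 in controls and 6008 ± 1595 with PS-MP. mt-Nd3 had 4165 ± 1308 and 2921 ± 519 CPM per kilobase, in the range of the rRNAs. mt-Nd6, from the opposite strand, was lowest in 6 of 6 libraries, with 324 ± 105 and 297 ± 115 CPM per kilobase. The mRNA of mt-Nd6 is known to lack the stable poly(A) tail of the other mitochondrial mRNAs. What the selection did to its level was not measured here.

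**Figure D5:**
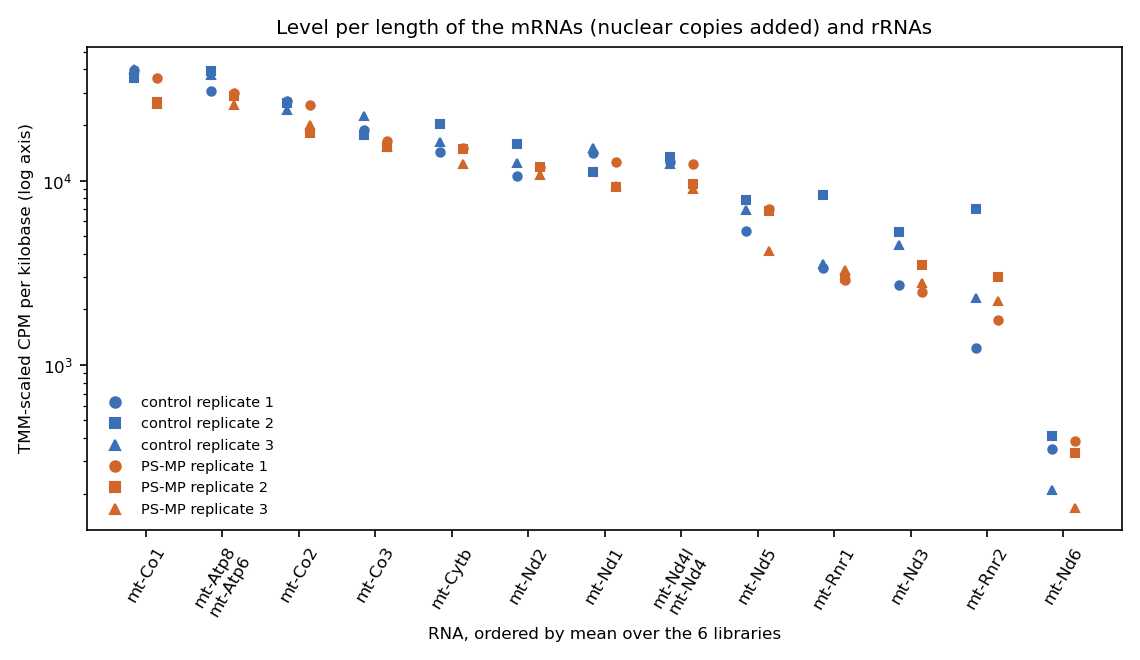
Level per length of each mitochondrial mRNA, with copies of at least 99% identity added, and of the rRNAs, in CPM per kilobase on a log axis, with 1 point per library (blue control, orange PS-MP). mt-Co1 and the mt-Atp8 and mt-Atp6 mRNA are highest, mt-Nd6 is lowest in all 6 libraries, and mt-Rnr1 and mt-Rnr2 are highest in control library 2.

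The rRNA rows stood apart in control library 2. mt-Rnr1, the RNA of the small mitochondrial ribosome subunit, had 3224, 7967 and 3366 CPM in controls and 2774, 2831 and 3127 CPM with PS-MP. The diets did not overlap, but controls 1 and 3 were near the PS-MP libraries and control library 2 was far above. The log2 fold change was -0.74 (SE 0.37, adjusted p = 0.931) and -0.18 without control library 2. mt-Rnr2, the RNA of the large subunit, had 1948, 11065 and 3636 CPM against 2769, 4740 and 3510 CPM. The lowest and the highest value were both controls, and the log2 fold change of -0.60 (SE 0.61) turned to 0.39 without control library 2.

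That library was also the one with the highest Rn18s-rs5 share, at 11.2% of counts, and whether both are linked was not tested. As a class the rRNAs took 0.495%, 1.70% and 0.658% of counts in controls and 0.577%, 0.843% and 0.713% with PS-MP. The log2 ratio of the diet means of this share was -0.42 with all libraries and 0.30 without control library 2, so the direction rested on that library. The ratio of mt-Rnr2 to mt-Rnr1 counts, 0.604 to 1.39 in controls and 0.998 to 1.67 with PS-MP, also overlapped.

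The tRNA rows are 59 to 75 bases long, so their levels can be compared with little regard to length. As a class they took 0.146%, 0.206% and 0.274% of counts in controls and 0.190%, 0.219% and 0.154% with PS-MP, which overlapped. The log2 ratio of the diet means was -0.15, and 0.10 without control library 3, the highest. Of the 22 rows, 8 are read from the same strand as mt-Nd6 and 14 from the strand of the other 12 protein genes. The 8 held 89.5% to 93.9% of the tRNA counts in every library. Neither the counting program nor its strand setting is given in the sources used here. This is therefore a split of counts, and abundance in the tissue by strand cannot be read from it. The highest tRNA row was mt-Tp, the proline tRNA, with 814, 788 and 966 CPM in controls and 996, 743 and 725 CPM with PS-MP. Its diets overlapped fully. The log2 fold change was -0.06 (SE 0.18), and it was above zero with library size only (0.15) and without control library 3 (0.04), PS-MP library 2 (0.01) or PS-MP library 3 (0.01). mt-Te, the glutamate tRNA, had 202 to 350 CPM in controls and 203 to 274 CPM with PS-MP.

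A cluster of 4 tRNAs on the mt-Nd6 strand shared a pattern over the libraries. mt-Tn, the asparagine tRNA, had 118, 364 and 538 CPM in controls and 150, 304 and 148 CPM with PS-MP. Its neighbours mt-Ta (alanine), mt-Tc (cysteine) and mt-Ty (tyrosine) were likewise highest in control library 3 and low in control library 1 and in PS-MP libraries 1 and 3. The ratio of mt-Tn to mt-Ta counts stayed between 1.71 and 1.86 and that of mt-Tc to mt-Ta between 1.52 and 1.596. The ratio of mt-Ty to mt-Ta varied more, from 0.508 to 0.736, and mt-Tn against mt-Tp, elsewhere on the same strand, ran from 0.145 to 0.557. The log2 fold changes of the 4 rows were -0.80 to -0.72 with SEs of 0.43 to 0.56, so each interval held 0, and that of mt-Tn was -0.26 without control library 3. The sequences of mt-Tn and mt-Tp are given as the cluster member with the most counts and the highest tRNA row.
mt-Tn: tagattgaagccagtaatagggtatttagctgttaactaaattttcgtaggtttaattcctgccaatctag
mt-Tp: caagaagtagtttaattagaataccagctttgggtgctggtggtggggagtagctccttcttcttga

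On the strand of the other 12 protein genes, 11 tRNA rows were tested. mt-Tl1, a leucine tRNA just after mt-Rnr2, had 89.4, 91.2 and 85.4 CPM in controls and 75.5, 67.4 and 48.1 CPM with PS-MP. The 3 controls lay within a narrow band, all PS-MP libraries were below it, and the log2 fold change was -0.48 (SE 0.18, unadjusted p = 0.0346, adjusted p = 0.906). Unlike the rRNAs beside it, mt-Tl1 did not stand apart in control library 2. mt-Tm, the tRNA for methionine, had 25.5, 28 and 25.3 CPM against 21.9, 22.8 and 18.0 CPM, without overlap, and the log2 fold change was -0.33 (SE 0.14, adjusted p = 0.923). mt-Tv, the valine tRNA between the rRNAs, was at 0.411 to 0.662 CPM in controls and 0.219 to 0.408 CPM with PS-MP. The gap between the diets was narrow for mt-Tv. The other 8 rows tested on this strand (mt-Tf, mt-Td, mt-Tk, mt-Tg, mt-Tr, mt-Th, mt-Ts2 and mt-Tt) overlapped between diets, with log2 fold changes from -0.59 to -0.29. Of these, mt-Tf and mt-Tr turned to 0.12 and 0.02 without control library 2, and mt-Tt to 0.01 without control library 3.

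Some tRNA rows were nearly empty. Of the 22, 5 had a median of 1 count (mt-Ti, mt-Tq, mt-Tw, mt-Ts1 and mt-Tl2), and all 5 share 1 to 3 bases with a neighbouring gene. Of the other 17, 1 row (mt-Ts2) does, and the lowest median count among the 17 was 11.5. This pattern was noticed after the values were seen. The 5 rows were not tested, and nothing about these tRNAs in the tissue can be read from them. A count of 1 in every library was also listed for 224 symbols of the whole table. mt-Ti, the isoleucine tRNA, shares 2 bases with the end of mt-Nd1 and 3 with mt-Tq, and mt-Tw, the tRNA for tryptophan, shares 2 with the end of mt-Nd2. They are shown with the shared bases in capitals.
mt-Ti: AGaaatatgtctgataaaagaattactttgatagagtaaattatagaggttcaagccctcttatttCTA
mt-Tw: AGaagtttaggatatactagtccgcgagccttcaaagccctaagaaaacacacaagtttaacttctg

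None of the listed nuclear genes that make and use these RNAs passed the test in either direction. Of 85 genes for transcription, maintenance, processing, modification, translation and regulation of the mitochondrial genome, all were tested and 0 had an adjusted p under 0.05 with edgeR, DESeq2 or limma-voom. Their log2 fold changes were below zero for 41 and above for 44, with a median of 0.01. Polrmt, the mitochondrial RNA polymerase, had 16.4 to 21.3 CPM in controls and 16.1 to 21.2 CPM with PS-MP (log2 fold change 0.05, SE 0.17). Tfam, which packages mitochondrial DNA and starts its transcription, had 37.6 to 45.9 against 35.3 to 47.7 CPM (-0.08, SE 0.16). Lrpprc, which stabilises mitochondrial mRNAs, had 79.3 to 89.5 against 69.4 to 85.0 CPM (-0.09, SE 0.13). For these 3 genes the diets overlapped and the 95% intervals lay inside 2-fold.

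At an unadjusted p under 0.05 there were 4 of the 85 genes, 2 in each direction. Polg2, the accessory subunit of the mitochondrial DNA polymerase, had 5.05, 4.55 and 6.05 CPM in controls and 8.87, 8.28 and 6.76 CPM with PS-MP (log2 fold change 0.61, SE 0.20, adjusted p = 0.831). Fastkd5, needed to cut mitochondrial precursor RNAs that have no tRNA between the genes, had 3.75, 5.09 and 4.51 CPM against 3.47, 2.68 and 2.35 CPM (-0.65, SE 0.24, adjusted p = 0.900). The others were Fastk, which acts on mt-Nd6 RNA, at 0.32 (SE 0.12), and Rexo2, which degrades short mitochondrial RNA fragments, at -0.29 (SE 0.12). In these 4 genes, picked by their p, the diets did not overlap, which is no further support. Over all 85 genes the diets did not overlap for 8 higher and 6 lower with PS-MP. For all genes tested those shares were 6.24% and 4.99%. The share of 4 in 85 at an unadjusted p under 0.05 is near the 5.38% of all genes tested.

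With TMM, nuclear subunits of the same complexes had small log2 fold changes that were mostly below zero. Of 76 listed genes found, 75 were tested, 67 were below zero and 8 above, where 47.2% of all genes were below, and the median was -0.09, beside 0.02 for all genes and -0.30 for the 12 mitochondrial protein genes without mt-Nd4. With library size only, the median of these genes and the 85 above together moved from -0.06 to 0.15, as that of all genes moved to 0.23. The direction of this joint median thus depended on the scaling. The subunit median of -0.09 is smaller in size than the shift of 0.21 in the median of all genes. The subunits share their scaling, so they are not 75 separate observations. Among the 75 subunits alone, 0 passed at an adjusted or an unadjusted p under 0.05, against 0.0113% and 5.38% of all genes tested. For 71 of 75 the 95% interval lay inside 2-fold, against 53.6% of all genes tested. By complex the medians were -0.09 for complex I (35 genes), -0.09 for complex II (4), -0.10 for complex III (9), -0.13 for complex IV (11) and -0.05 for complex V (16). For complexes I, III, IV and V the nuclear median was nearer to 0 than that of the mitochondrially encoded members, which complex II lacks. The medians of those members were -0.22 for complex I without mt-Nd4, -0.27 for complex III, -0.32 for complex IV and -0.35 for complex V. That difference between nuclear and mitochondrial subunits was not tested.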

How the data were processed

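The 6 files hold whole-number read counts per gene, deposited by the authors without normalization as far as their values show. Per the labels, total RNA of liver was selected for poly(A) and made into directional libraries, and bcl2fastq and the build GRCm39 are named in the submitters' processing notes. Aligner, counting program and strand setting were not given in the sources used here. A deposited table of the whole series equals the 6 files in all 6 libraries and served only as a check. Each file has 56674 rows under 55802 symbols, and rows sharing a symbol (67 symbols) were added up.

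Genes of low count were removed with filterByExpr by diet in edgeR 4.0.16 (R 4.3.3), leaving 17662. Counts were scaled by TMM, and diet was the only term of the quasi-likelihood F test, with Benjamini-Hochberg adjustment over all genes tested. SEs were derived from the log2 fold change and its F value, and 95% intervals from 6.63 moderated degrees of freedom. The fit was tested on simulated data. DESeq2 1.42.0, limma-voom (limma 3.58.1), other scalings and filters, robust dispersions, a replicate block and leaving out each library were alternatives. Summing rows with their copies, scaling without rRNA rows and overlap in percent of counts were chosen after seeing the data. Sums and ratios were given no test. Copies were found with blastn 2.17.0 on GENCODE release M21 transcripts, over at least 100 bases, and all 37 members matched a symbol there. Lengths are from the same release.

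Any mitochondrial row could be named, as could the 2 genes of smallest p in each direction of each pathway list, Polrmt, Tfam, Lrpprc, Mtpap and Ppargc1a, and copies with over 0.1% of counts in a library. Gm28438, Gm10222, Gm13340, Rn18s-rs5 and the cell type markers Alb, Ucp1, Lep and Plin1 fall outside this rule and were chosen after their values were seen. The members and lists were chosen with earlier results of these data known.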

Additional observations from a re-analysis of the deposited data

How the results depend on the processing

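In all 18 alternative fits 0 mitochondrial rows passed an adjusted p of 0.05, and the lowest adjusted p was 0.511. Of 573 values of single rows under these alternatives, 559 were below zero. Library size in place of TMM gave medians of -0.108 over the 13 protein genes and -0.0913 over the 12 without mt-Nd4, and values above zero for mt-Nd2 (0.0428), mt-Nd5 (0.0638), mt-Nd6 (0.0908) and mt-Tp (0.146). The mean in place of the median over the 13 was -0.498. Leaving out single libraries gave medians of -0.405 to -0.267 and -0.398 to -0.264. Leaving out single libraries also turned the direction of mt-Rnr2 (-0.998 to 0.393), mt-Tf (-0.897 to 0.124) and mt-Tr (-0.546 to 0.0199), each without control library 2, of mt-Nd6 (-0.374 to 0.145, control library 2 or PS-MP library 3), mt-Nd5 (-0.296 to 0.0367, PS-MP library 3), mt-Tt (-0.452 to 0.00617, control library 3) and mt-Tp (-0.222 to 0.0380, control library 3, PS-MP library 2 or PS-MP library 3). The log2 ratio of the protein share of counts was -0.110, or -0.321 in TMM-scaled CPM, and -0.192 to -0.0263 with a library left out. For the rRNA share it was -0.727 to 0.303 and for the tRNA share -0.353 to 0.0957. The cause of these shifts was not tested.

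With the replicate block the medians were -0.304 and -0.300 and 0 rows passed. After each gene was centred within its diet, libraries of the same number correlated at 0.168, 0.193 and -0.149. Libraries of different numbers correlated at -0.287 to 0.123. With 3 libraries per diet these values cannot decide whether libraries of the same number belong together, and the labels name no such pairing. Rows with a median of 1 count were too shallow to test.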
